A study of Rattus norvegicus with 10 samples.

Results

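The MHC class II presentation genes of the rat were followed array by array in livers of animals given sulfur mustard (SM), an alkylating vesicant, with or without MSTF, a plant mixture of salvianolic acids with total flavonoids given as a treatment. The list held 10 genes: RT1-Da, RT1-Db1, RT1-Ba, RT1-Bb, RT1-DMa, RT1-DMb, RT1-DOb, Cd74, Ciita and Ctss. Every probe whose transcript accession belongs to one of these symbols was kept, which gave 14 probes for 9 of the 10 genes, out of 41012 probes and 13837 named genes on the array. No probe carried an accession of RT1-DMb, and this gene was not analysed here. The 10 arrays held 1 male Sprague Dawley rat each. The 3 control rats received the solvent propylene glycol, the 4 SM rats received 1 subcutaneous dose of 3.5 mg/kg SM (0.7 of the LD50), and the 3 SM + MSTF rats received the same dose of SM and, 1 h later, 120 mg/kg MSTF into the stomach. Livers were taken 24 h after SM. Sprague Dawley is an outbred stock, RT1 genes are polymorphic, and the RT1 haplotypes of the rats are not given in the sources used here.

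MHC class II molecules are pairs of an alpha and a beta chain that carry peptides from the endosome to the surface of B cells, dendritic cells and macrophages, where CD4 T cells read them. In the rat, RT1-D corresponds to human HLA-DR and RT1-B to HLA-DQ. The invariant chain Cd74 escorts new pairs and blocks their groove, cathepsin S (Ctss) cuts it away, RT1-DM exchanges the remaining fragment for a peptide, and RT1-DO restrains RT1-DM. In the liver, Kupffer cells, dendritic cells and sinusoidal endothelium carry the class II pathway, and hepatocytes do so little at rest. The coactivator Ciita docks on proteins bound at the X and Y boxes of class II promoters and sets how strongly these genes are transcribed.

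The promoter sequences of 6 RT1 genes of the list are shown here because Ciita acts through X and Y boxes. Promoter windows from 250 bases before to 50 bases after the annotated start were taken from RefSeq (GRCr8) and were found for 8 of the 10 genes, with Ciita and RT1-DMb not in the table used here. Both strands were searched for TGATTGG, which reads as the core of a Y box and holds CCAAT on the other strand, and for GNNACNG, an X box core. The letters and the spacing were chosen after the sequences had been read. In each sequence below, written 5′ to 3′ on the strand of the gene, the capitals mark first the X letters and then the Y letters.
RT1-Da, alpha chain of RT1-D, chr20:4515321-4515382, plus strand: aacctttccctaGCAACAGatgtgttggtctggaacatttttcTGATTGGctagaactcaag
RT1-Db1, beta chain of RT1-D, chr20:4560226-4560286, minus strand: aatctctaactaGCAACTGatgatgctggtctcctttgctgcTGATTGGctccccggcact
RT1-Ba, alpha chain of RT1-B, chr20:4576969-4577030, plus strand: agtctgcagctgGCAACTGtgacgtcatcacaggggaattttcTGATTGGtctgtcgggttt
RT1-Bb, beta chain of RT1-B, chr20:4604163-4604223, minus strand: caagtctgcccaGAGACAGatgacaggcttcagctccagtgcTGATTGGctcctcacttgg
RT1-DMa, alpha chain of the peptide exchanger, chr20:4712383-4712444, minus strand: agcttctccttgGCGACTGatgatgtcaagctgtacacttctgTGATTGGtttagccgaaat
RT1-DOb, beta chain of its inhibitor, chr20:4627590-4627648, minus strand: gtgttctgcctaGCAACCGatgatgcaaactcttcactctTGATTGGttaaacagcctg

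All 6 RT1 windows held both sets of letters, with the start of X between -113 and -76 from the start site, the start of Y between -85 and -45, and 28 to 31 bases from the start of X to the start of Y. The paired matches did not overlap each other. Of 33469 promoter windows of the same length, 7.06% held the Y letters, 88.1% held the X letters and 0.687% held X followed by Y with starts 25 to 45 bases apart. The windows of Cd74 and Ctss held no Y letters, which says only that these letters were not in those windows. A match of letters is a description of the sequence and not a measurement of binding.

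**Figure D1:**
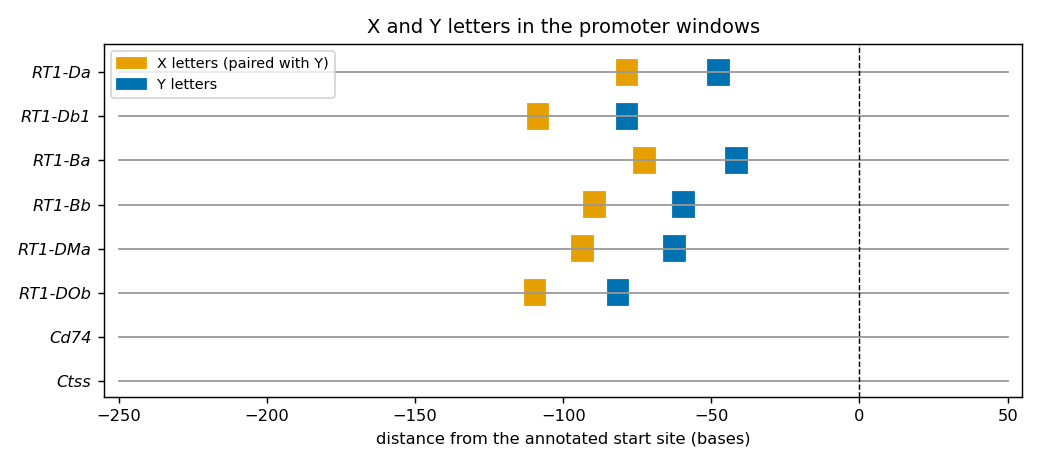
Positions of the X letters (orange) and Y letters (blue) in the promoter windows of 8 genes, drawn as distance in bases from the annotated start site (dashed line); X letters are drawn only where they pair with Y. In the 6 RT1 genes the X letters stood 28 to 31 bases before the Y letters, and Cd74 and Ctss had no pair.

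The values below are log2 of the quantile-normalized spot signal, and a difference of 1 on that scale is a doubling. Of the 41012 probes, 22991 were tested because all arrays of 1 group or more read them well above background. The share of probes above background was 51.9% to 61.4% per array, and precision is limited by the number of arrays. Among the class II probes 11 of 14 were tested, for 6 genes: RT1-Da, RT1-Db1, RT1-Bb, RT1-DMa, Cd74 and Ctss. Called changed here means a difference of 1.5-fold or more together with a Benjamini-Hochberg adjusted p under 0.05 in limma. The leading probe of a gene is the one with the highest mean signal over the 10 arrays. The 4 SM arrays filled slide 2, so that SM and slide 2 cannot be told apart, while replicate 3 of SM + MSTF shared slide 1 with the 3 controls and its replicates 1 and 2 were on slide 3. The p-values of the main fit rest on the spread between arrays within a group, pooled over the 3 groups. This spread holds differences between rats and, in SM + MSTF, also between slides.

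In the SM group, the invariant chain, both chains of RT1-D and the beta chain of RT1-B lay below control, by 1.53-fold to 1.63-fold at the leading probes of Cd74, RT1-Da, RT1-Db1 and RT1-Bb. RT1-DMa and Ctss, which act later in loading, had differences of 0.03 and -0.35 on the log2 scale. In SM versus control 0 of the 11 probes were called in limma, beside 2.41% of all tested probes, a share that fell to 0.277% without control replicate 2. At an unadjusted p under 0.05, 5 of the 11 passed, beside 16.4%, and the methods' t-test after Benjamini-Hochberg adjustment called 1, beside 1.39%. In the SM + MSTF group, RT1-Da, RT1-Db1 and Cd74 lay between the SM and control means, Ctss lay above both and RT1-Bb lay below both at its leading probe. RT1-Da, RT1-Db1 and Cd74 were among the genes that the study listed from these same arrays, so that their direction here is not independent evidence. The study also measured RT1-Da by quantitative PCR and reported qualitative changes like those of the arrays. Those PCR values were not examined here.

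**Figure D2:**
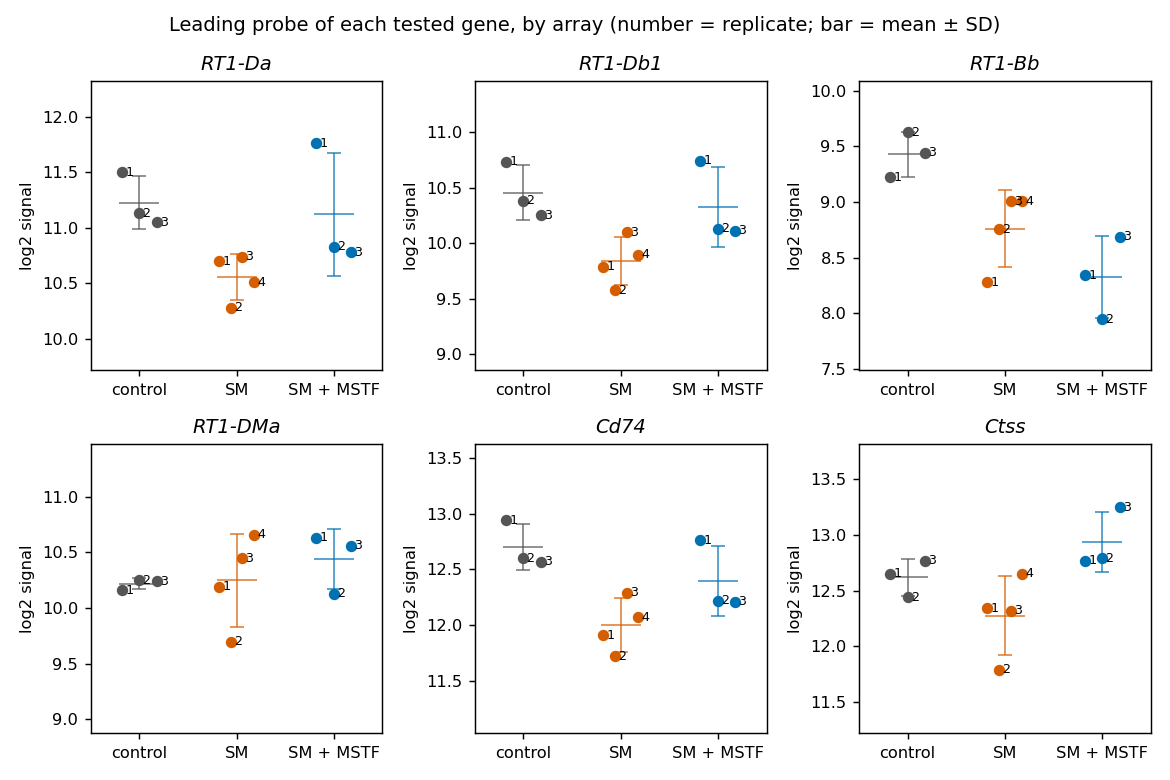
Log2 signal of the leading probe of each tested gene on every array (points, numbered by replicate), with the mean and SD of each group as bars; all panels span the same log2 range. In RT1-Da, RT1-Db1, RT1-Bb and Cd74 the 4 SM arrays sit below the 3 control arrays, and in RT1-DMa and Ctss the SM and control arrays overlap.

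Cd74, the invariant chain, read 12.94, 12.60 and 12.57 on the control arrays, 11.91, 11.72, 12.29 and 12.07 on the SM arrays, and 12.76, 12.22 and 12.21 on the SM + MSTF arrays. Every SM array lay below every control array, and SM + MSTF replicates 2 and 3 lay below the controls and inside the range of the SM arrays. The difference of SM from control was -0.70 (standard error 0.18), or 1.63-fold lower, with an adjusted p of 0.0811 in limma, which missed the threshold. SM + MSTF differed from SM by 0.40 (adjusted p = 0.324) and from control by -0.30 (adjusted p = 0.648).

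RT1-Da encodes the alpha chain of RT1-D. Its leading probe, A_44_P991532, read 11.50, 11.13 and 11.05 in control, 10.70, 10.28, 10.74 and 10.51 in SM, and 11.76, 10.83 and 10.78 in SM + MSTF. The second probe, A_44_P367688, read 8.58, 8.56 and 8.60 in control, 7.82, 7.74, 7.86 and 7.86 in SM, and 9.16, 8.23 and 8.18 in SM + MSTF. On both probes all SM arrays lay below all other arrays, and SM + MSTF replicate 1 was the highest array of the 10. SM differed from control by -0.67 (standard error 0.24, adjusted p = 0.196) on the leading probe. On the second probe the difference was -0.76 (standard error 0.21, adjusted p = 0.0961). SM + MSTF lay above SM by 0.57 and 0.70 on the probes in the same order, with adjusted p of 0.293 and 0.157 in limma.

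The second RT1-Da probe was called in SM versus control in fits without all or 1 of the SM + MSTF arrays, whose SD on this probe was 0.55, against 0.02 in control and 0.06 in SM. The adjusted p was 0.00284 with only the SM and control arrays, and 0.00618 when SM + MSTF replicate 1 was left out. The difference itself stayed at -0.76 in both.

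RT1-Db1 encodes the beta chain that pairs with RT1-Da and had 3 probes. The leading probe, A_44_P130513, read 10.73, 10.38 and 10.25 in control, 9.79, 9.58, 10.10 and 9.90 in SM, and 10.74, 10.13 and 10.11 in SM + MSTF. The second, A_44_P130516, read 10.18, 9.39 and 9.27 in control, 9.44, 8.68, 9.06 and 9.01 in SM, and 10.76, 9.95 and 9.29 in SM + MSTF. The SM means lay below control on both, with differences of -0.61 and -0.56 (adjusted p = 0.142 and 0.470 in limma), although the groups overlapped on the second probe. SM + MSTF lay above SM by 0.48 and 0.95 (adjusted p = 0.270 and 0.235).

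The third RT1-Db1 probe, A_44_P139882, ran the other way in SM + MSTF. It read 5.91, 6.38 and 6.48 in control, 5.48, 5.55, 5.90 and 5.79 in SM, and 2.31, 3.54 and 5.16 in SM + MSTF. Only replicate 3 of the SM + MSTF arrays was well above background. SM + MSTF differed from control by -2.59 (standard error 0.56, adjusted p = 0.348) and from SM by -2.01 (adjusted p = 0.113). Without SM + MSTF replicate 3 both SM + MSTF arrays left were not well above background, and only a bound can be given. The probe was then at least 3.35-fold lower than in control and at least 2.25-fold lower than in SM. For this bound each dim array was set at the faintest signal that still passed as above background there. Both comparisons were called on the values as read, 2.31 and 3.54 (adjusted p = 0.00234 and 0.00724 in limma). These calls rest on signals not well above background, and the bound itself was not tested. On the array where this probe was lowest, SM + MSTF replicate 1, the other RT1-Db1 probes had their highest values of the 10 arrays.

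RT1-B, the second classical class II molecule, was read through its beta chain only. The single probe of RT1-Ba, the alpha chain, did not rise well above background on any of the 10 arrays and was not tested. RT1-Bb had 2 probes, and they did not follow each other.

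The leading RT1-Bb probe, A_44_P500803, read 9.22, 9.63 and 9.44 in control, 8.28, 8.76, 9.01 and 9.01 in SM, and 8.34, 7.95 and 8.69 in SM + MSTF. All arrays of both exposed groups lay below all controls. SM differed from control by -0.67 (standard error 0.22, adjusted p = 0.158) and SM + MSTF differed from control by -1.11 (standard error 0.23, adjusted p = 0.348), or 2.15-fold lower. Neither was called. Without SM + MSTF replicate 3 the second difference was -1.29 and was called (adjusted p = 0.0473 in limma). SM + MSTF differed from SM by -0.44 (adjusted p = 0.357), where the leading probes of RT1-Da, RT1-Db1 and Cd74 had differences above 0.

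The second RT1-Bb probe, A_44_P552452, was on or off rather than graded. It read 10.83, 2.22 and 2.33 in control, 9.80, 2.11, 2.62 and 2.44 in SM, and 11.65, 11.17 and 10.95 in SM + MSTF. It was well above background on 5 of 10 arrays, which were control replicate 1, SM replicate 1 and all 3 SM + MSTF arrays. The difference of SM + MSTF from SM was 7.01 (standard error 2.35, adjusted p = 0.203) and that from control 6.13 (standard error 2.51, adjusted p = 0.492). The SD within control was 4.94 on this probe, and neither difference was called.

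Some other class II probes had the lowest or highest value of their group on replicate 1 of control and of SM. Where the second RT1-Bb probe was bright in control and SM, that is in replicate 1 of each, the leading RT1-Bb probe had the lowest value of its group, 9.22 in control and 8.28 in SM. The third RT1-Db1 probe also had its lowest control value, 5.91, and its lowest SM value, 5.48, in these replicates, although SM replicate 2 was close at 5.55. The second RT1-Db1 probe had its highest control value, 10.18, and its highest SM value, 9.44, there. Control replicate 1 was also the highest control array for Cd74 and the leading probes of RT1-Da and RT1-Db1. The sequences of the probes and the RT1 alleles of the rats were not at hand, and their part in these values was not tested.

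**Figure D3:**
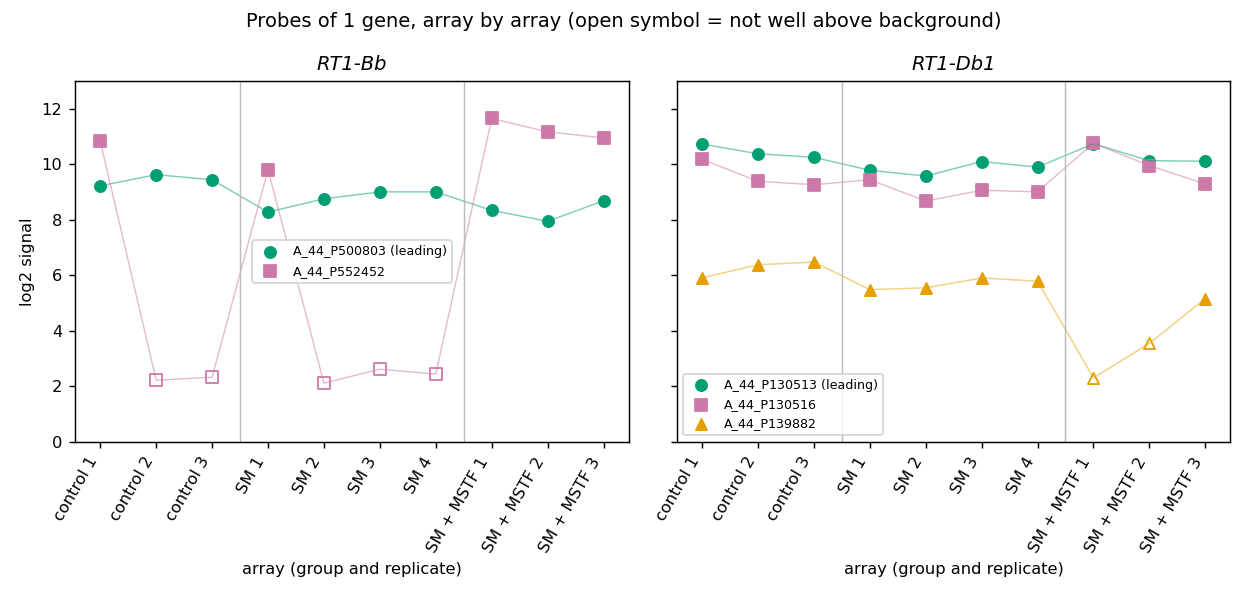
Log2 signal of the 2 RT1-Bb probes (left) and the 3 RT1-Db1 probes (right) on each of the 10 arrays, in the order control, SM and SM + MSTF; open symbols mark arrays where the probe was not well above background. The second RT1-Bb probe is above 9 on 5 arrays and below 3 on the other 5, and the third RT1-Db1 probe falls to 2.31 on SM + MSTF replicate 1, where the other RT1-Db1 probes are at their highest.

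Outside the class II genes, the probes most like the second RT1-Bb probe over the 10 arrays included probes of 2 class I genes, which present peptides to CD8 T cells, and of genes on other chromosomes. These names were chosen after their values were seen. The named gene with the highest Pearson correlation was RT1-A3, on chromosome 20 like RT1-Bb, at r = 0.984 over 10 arrays. RT1-A3 read 7.54, 3.55 and 2.33 in control, 6.99, 2.07, 2.02 and 2.12 in SM, and 8.11, 8.01 and 7.23 in SM + MSTF. It was bright on the same 5 arrays. RT1-CE4, another class I gene on chromosome 20, had r = 0.875 and ranked behind Gsk3a (0.953, chromosome 1), Idua (0.897, chromosome 14) and Wasl (0.883, chromosome 4) among named genes. It had means of 9.42 in control, 8.68 in SM and 10.45 in SM + MSTF, and its arrays ranged from 8.002 to 10.64. A correlation does not measure the size of a change. Gsk3a ranged only from 5.845 to 6.305, Idua from 4.651 to 5.094 and Wasl from 5.351 to 5.871, so that none of them was on or off. These correlations are descriptions across arrays of 3 groups on 3 slides.

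RT1-DMa, a chain of the peptide exchanger, read 10.16, 10.25 and 10.24 in control, 10.19, 9.70, 10.45 and 10.66 in SM, and 10.63, 10.13 and 10.56 in SM + MSTF. The SM arrays spread on both sides of the controls, and the difference was 0.03, with a 95% interval from -0.45 to 0.51. RT1-DOb, which restrains RT1-DM and is best known from B cells, did not rise well above background on any of the 10 arrays and was not tested.

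Ctss, the protease that trims the invariant chain, is also strong in macrophages. Its leading probe, A_44_P1004731, read 12.65, 12.44 and 12.77 in control, 12.34, 11.79, 12.32 and 12.65 in SM, and 12.77, 12.79 and 13.25 in SM + MSTF. SM and control overlapped (difference -0.35, adjusted p = 0.447 in limma), while every SM + MSTF array lay above every SM array. SM + MSTF lay above SM by 0.66 (standard error 0.20, adjusted p = 0.172) on this probe. The second probe, A_44_P355928, gave 0.53 (standard error 0.18, adjusted p = 0.216). Both missed the threshold.

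Ciita, the coactivator of the family, was near the background. It read 5.11, 4.74 and 5.12 in control, 6.18, 4.47, 4.04 and 4.75 in SM, and 4.90, 4.65 and 5.12 in SM + MSTF. It was well above background on 7 of 10 arrays, not on all arrays of any group, and was not tested. The highest and the lowest value of the 10 arrays were both in SM.

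Over the tested probes of the family, 10 of 11 had a log2 fold change below 0 in SM versus control, beside 44.1% of all tested probes. The groups did not overlap, with SM lower, for 6 of 11 probes and for 4 of 6 genes at their leading probe, beside 7.96% of all tested probes. Over the 9 probes that were well above background on all 10 arrays, it was 5 of 9, beside 8.05% of 20221 such probes. The 5 of 11 probes at an unadjusted p under 0.05 also had a change of at least 1.5-fold, beside 5.61%. Without control replicate 1, 3 of 11 passed at an unadjusted p under 0.05. The median log2 fold change over the 6 genes was -0.64, beside 0.03 over all tested probes. Several of these probes read the same gene, and the genes were listed with earlier results of these data known, so that the counts are descriptions.

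In SM + MSTF versus control, 0 of 11 probes were called and 0 of all 22991 tested probes were called (0%) in limma. The count over all probes was 247 of 23048 (1.07%) without SM + MSTF replicate 3. At an unadjusted p under 0.05, 3 of 11 passed, beside 9.54%, each with a change of at least 1.5-fold, beside 3.01%. The second RT1-Bb probe was tested only because all 3 SM + MSTF arrays were bright, and the third RT1-Db1 probe was dim on 2 SM + MSTF arrays, so that neither supports a difference of this group. Of the 9 probes above background on all arrays, 1 passed, the leading RT1-Bb probe, beside 9.42%. The median over the 6 genes was -0.12, beside 0.00 over all tested probes. Within slide 1, which held the controls and SM + MSTF replicate 3, that replicate lay below the control mean at the leading probes of RT1-Da (-0.45), RT1-Db1 (-0.35), Cd74 (-0.49) and RT1-Bb (-0.74), and above it at RT1-DMa (0.34) and Ctss (0.63). With the slide as a block, which gives these same differences, no probe of the family was called, beside 0.687% of all tested probes.

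In SM + MSTF versus SM, 0 of 11 probes were called, beside 1.26% of all tested probes, and 8 of 11 passed at an unadjusted p under 0.05, beside 15.9%. Of these, 5 also had a change of at least 1.5-fold, 4 higher and 1 lower in SM + MSTF, beside 5.36% in either direction. The lower one was the third RT1-Db1 probe. It was dim on 2 SM + MSTF arrays and does not support a difference here. Without SM + MSTF replicate 1, and also without SM replicate 2, 5 of 11 passed at an unadjusted p under 0.05. Without SM + MSTF replicate 1 the differences at the leading probes were 0.25 for RT1-Da, 0.28 for RT1-Db1 and 0.22 for Cd74, against 0.57, 0.48 and 0.40 with all arrays. The SM + MSTF arrays lay above the SM arrays with no overlap for 6 of 11 probes and 3 of 6 genes, beside 5.95% of all tested probes. The second RT1-Bb probe, tested only through the SM + MSTF arrays, was among the 6. It was also among the probes that passed at an unadjusted p with the fold minimum, and it supports nothing here. Of the 9 probes above background on all arrays, 5 did not overlap, beside 5.85%, and 6 passed at an unadjusted p under 0.05, beside 14.2%. With a change of at least 1.5-fold as well, 3 of the 9 passed, beside 727 of 20221 such probes. These were the second probes of RT1-Da and RT1-Db1 and the leading probe of Ctss. The groups overlapped on the second RT1-Db1 probe. The leading probes of RT1-Da (1.48-fold) and RT1-Db1 (1.40-fold) missed the fold minimum, so that by leading probe 1 of 6 genes passed, Ctss. The median over the 6 genes was 0.44, beside -0.02 over all tested probes. The comparisons share arrays: SM enters both SM versus control and SM + MSTF versus SM.

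**Figure D4:**
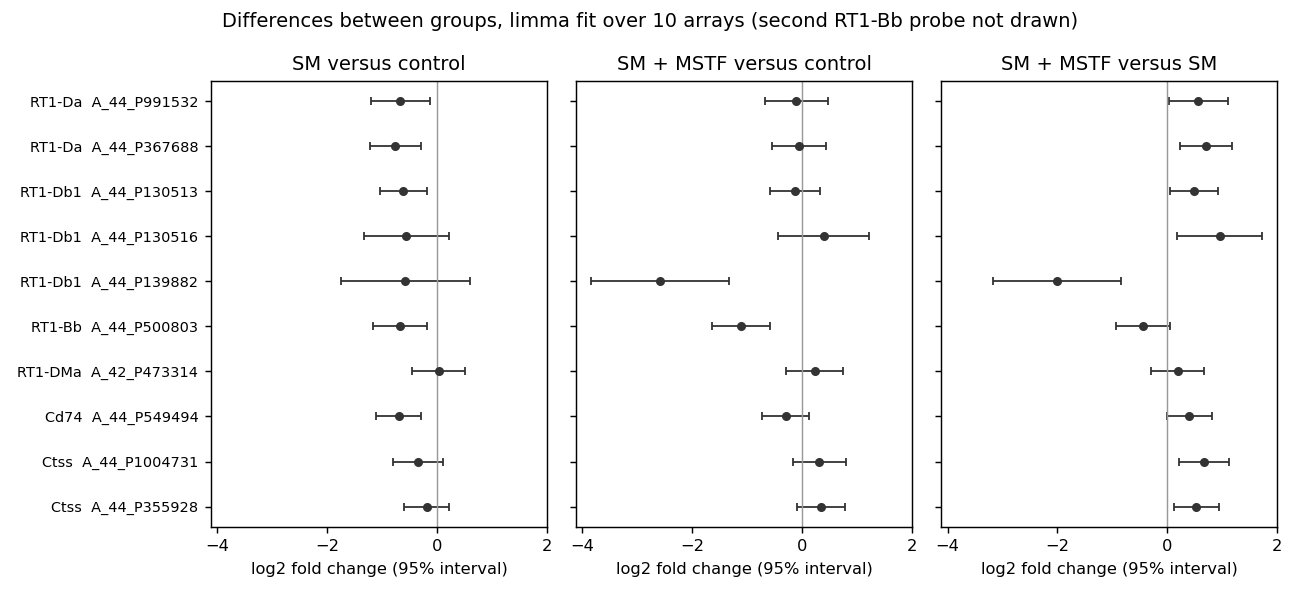
Log2 fold change with its 95% interval for 10 of the 11 tested probes in the 3 comparisons, from 1 limma fit over 10 arrays; the second RT1-Bb probe, whose intervals reach from -6.14 to 12.3, is not drawn. In SM versus control 9 of the 10 drawn probes lie below 0, and in SM + MSTF versus SM the third RT1-Db1 probe and the leading RT1-Bb probe lie below 0 while the rest lie above.

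The family did not follow a single pattern over the arrays. Set against Cd74, the leading RT1-Db1 probe had the highest Pearson correlation of all tested probes over the 10 arrays (r = 0.977), the leading RT1-Da probe ranked 3 (r = 0.926) and the second RT1-Da probe ranked 21 (r = 0.866). The other RT1-Db1 probes had r = 0.704, at rank 419, and r = -0.114. Ctss (0.449), the leading RT1-Bb probe (0.394) and RT1-DMa (0.334) were much less like Cd74. The 5 other named genes most like Cd74 were the hepatic cytochrome Cyp2c7 (0.962), the tyrosine kinase Fer (0.913), the chemokine Cxcl12 (0.892), the DNA-binding protein Fubp1 (0.891) and the exocyst subunit Exoc5 (0.886). These values describe 10 arrays that share their groups and slides.

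Genes that handle class II molecules and their peptides were examined as a list of 12, of which 11 were tested. Marchf1, a ubiquitin ligase that removes class II molecules from the surface, was the only one of them called. The call was in SM versus control, beside 2.41% of all tested probes. It read 8.10, 7.87 and 7.84 in control, 6.99, 6.93, 6.95 and 7.15 in SM, and 7.22, 7.27 and 7.95 in SM + MSTF. It was lower in SM than in control (difference -0.93, standard error 0.17, adjusted p = 0.0268), with no overlap between the groups. The call was lost without any 1 of the control or SM arrays (adjusted p between 0.0509 and 0.102) and with no filter on dim probes, the replicate number as a block or the slide as a random block (0.0548, 0.0822 and 0.0862), while the difference stayed between -0.98 and -0.85 in these settings. In SM + MSTF versus control the Marchf1 difference was -0.45 and was not called. Without SM + MSTF replicate 3 it was -0.69 and was called (adjusted p = 0.0350 in limma), beside 1.07% of all tested probes. With the slide as a fixed block it was 0.02. The other 10 handling genes lay between -0.29 and 0.18 in SM versus control, and none was called. Among them were the lysosomal thiol reductase Ifi30 (-0.09), legumain (Lgmn, 0.01) and the cathepsin Ctsl (-0.18).

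The factors that bind class II promoters were measured for 8 of 11 entries. All 8 had a log2 fold change above 0 in SM versus control, beside 55.9% of all tested probes, in a narrow range from 0.10 to 0.33, and none was called. The largest was Nfyc, a subunit of the Y box factor, at 0.33 (adjusted p = 0.341 in limma). In the interferon-gamma axis, which induces Ciita, 4 of 8 tested genes lay above 0 and 4 below in SM. The interferon-responsive factor Irf1 had a difference of -0.36 (adjusted p = 0.262). Of 2 tested costimulatory genes, the larger difference was that of Cd40 at -0.33 (adjusted p = 0.434). None of these genes was called in any of the 3 comparisons.

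Markers of the cells that carry class II molecules were set beside these values. In bulk liver, fewer cells of a type and less RNA per cell cannot be told apart. The hepatocyte genes albumin (Alb), at 18.01 to 18.30, and transthyretin (Ttr), at 17.66 to 18.43, were well above background on all 10 arrays. Macrophage markers had 12 of 12 tested genes below 0 in SM versus control, with a median of -0.12, and 12 of 12 above 0 in SM + MSTF versus SM, with a median of 0.39. Over all tested probes 44.1% and 46.4% lay on these sides. In SM + MSTF versus control 12 of 12 lay above 0, with a median of 0.26. There 4 of the 6 class II genes lay below 0 and 2 above at their leading probe. None of the macrophage markers was called in any of the 3 comparisons. The Kupffer cell receptor Marco had the largest differences, -0.60 in SM versus control (adjusted p = 0.315) and 0.96 in the SM + MSTF group against SM (adjusted p = 0.147). Log2 of the summed signal of the 12 macrophage markers was 16.83 to 17.18 in control, 16.22 to 17.15 in SM and 16.94 to 17.27 in SM + MSTF. SM replicate 2 had the lowest sum, and also the lowest value of the 10 arrays for Cd74, RT1-Da, RT1-Db1, RT1-DMa and Ctss. SM replicate 4 had a sum of 17.15, inside the control range, while its Cd74 value of 12.07 and its RT1-Da value of 10.51 lay below every control. The part of macrophages in the class II values was not tested.

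Of the defining B cell markers, Cd79b was tested and Ms4a1 was not matched to a probe. Cd79b, a chain of the B cell receptor, read 6.42, 6.65 and 6.02 in control, 3.57, 4.28, 5.04 and 3.84 in SM, and 5.63, 3.09 and 6.21 in SM + MSTF. All SM arrays lay below all controls (difference -2.18, standard error 0.65, adjusted p = 0.125). It was called with only SM and control in the fit (adjusted p = 0.0140) and without SM + MSTF replicate 2 (adjusted p = 0.0222 in limma). It was well above background on 7 of 10 arrays, and 2 of the 4 tested B cell markers lay above 0 in SM. Log2 of the summed signal of the 7 matched B cell markers was 8.76 to 9.13 in control. It was 8.35 to 9.76 in SM and 8.57 to 8.88 in SM + MSTF.

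Dendritic cell markers were thin, with 3 of 11 tested. Xcr1 did not rise well above background on any of the 10 arrays, and Flt3 and Clec9a were not matched to a probe. Cd83, an activation marker, had the largest difference of SM from control, -0.72 (standard error 0.32, adjusted p = 0.303). Batf3 also lay below 0 there, at -0.47, while Ccr7 lay above it, at 0.48. Ccr7 had the largest difference between the exposed groups, at -1.18 with MSTF (adjusted p = 0.172 in limma). There Cd83 and Batf3 lay above 0, at 0.50 and 0.42. Ccr7 was well above background on 4 of 10 arrays, and none of these markers was called. Log2 of the summed signal of the 6 matched markers was 9.15 to 9.59 in control. It was 8.20 to 9.54 in SM and 8.73 to 9.54 in SM + MSTF. Cd83 was the brightest of these markers, with a control mean of 8.95, so that the sum mostly follows Cd83.

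T cell, endothelial and hepatocyte markers showed no call. Cd4, also carried by rat macrophages, differed by -0.39 in SM (adjusted p = 0.411), the endothelial cadherin Cdh5 by 0.32 (adjusted p = 0.268) and the hepatic enzyme Tat by 0.36 (adjusted p = 0.468). The T cell marker Cd3g was well above background on all 10 arrays and Cd3e on 1, and the sinusoidal marker Lyve1 read 11.06 to 11.61, while Stab2 was not matched. The medians of these lists in SM versus control were -0.12 for 6 tested T cell markers, 0.00 for 7 endothelial markers and -0.04 for 9 hepatocyte markers. The part of these cell types in the class II values was not tested.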

How the data were processed

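Liver RNA of 10 rats was hybridized to single-colour Agilent Whole Rat Genome oligo arrays. The authors read spots with Agilent Feature Extraction 10.7, and the deposited files give the background-subtracted intensity of each spot with its median signal and local background. The deposited log2 values, which the authors normalized by the quantile algorithm, served as an alternative. Intensities of spots other than controls, without the 0 to 4 nonuniform spots per array, were quantile normalized, put on the log2 scale and averaged per probe. A probe was tested where all arrays of 1 group or more read it well above background and each group had 2 values or more, in 1 fit with limma 3.58.1 in R 4.3.3 with Benjamini-Hochberg adjustment. Groups were taken from the labels, which do not pair the rats. Probe accessions were named through the RefSeq table of GRCr8, which named 17512 of 41012 probes. Figures were drawn in Python 3.11.

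All 10 genes and all their probes are reported. Of 10 further gene lists (109 entries, 91 matched), called genes are named, or otherwise the tested gene with the largest difference in SM, with defining markers and the 5 named genes most like Cd74. Other genes were named for their role after values were seen. Some genes that this rule names are not reported here. The members and lists were chosen with earlier results of these data known. The procedure was tested on simulated data. Alternatives were other scaling (75th percentile), normexp correction (offset 50), filters, fits, call rules, blocks and each array left out.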

Additional observations from a re-analysis of the deposited data

Results flagged for a closer look

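Among the SM arrays, replicate 1 stood apart on the second RT1-Bb probe, at 9.80 against 2.11 to 2.62 on the other 3 arrays. Its gap to the nearest array was 0.934 of the range of the group, above Dixon's 95% critical value for 4 arrays. The 14 class II probes were examined in this way in the SM group, the only one with 4 arrays, and chance alone flags about 1 in 20.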

How the results depend on the processing

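Of 402 recomputed log2 fold changes of the 6 leading probes, 382 kept their direction and their side of the threshold, 13 newly passed and 7 changed sign. The 13 were 4 genes in SM versus control at an unadjusted p and with the methods' t-test (RT1-Da, RT1-Db1, RT1-Bb and Cd74), RT1-Bb in SM + MSTF versus control and Ctss in SM + MSTF versus SM in those settings, and RT1-Bb without SM + MSTF replicate 3. RT1-DMa in SM versus control became -0.10 with the replicate block, and with each array left out it lay between -0.10 (without SM replicate 4; -0.034 without SM replicate 3) and 0.22. In SM + MSTF versus control and with each array left out, RT1-Da lay between -0.42 and 0.068, above 0 without control replicate 1 (0.033) and without SM + MSTF replicates 2 (0.042) or 3 (0.068), and RT1-Db1 lay between -0.34 and 0.011, above 0 without control replicate 1. The count of class II probes called in SM versus control, 0, was 1 with only the groups compared and with the methods' t-test after adjustment, both the second RT1-Da probe (beside 3.10% and 1.39% of all probes), 5 at an unadjusted p with the fold minimum and 5 with the methods' t-test unadjusted (genes 4 and 4; 5.61% and 4.92% of all probes), and 0 to 1 with each array left out. In SM + MSTF versus control it was 3 at an unadjusted p and 2 with the methods' t-test (genes 1 and 1; 3.01% and 1.24% of all probes), and 0 to 2 with each array left out (genes 0 to 1), where the 2, without SM + MSTF replicate 3, were RT1-Bb and the third RT1-Db1 probe, beside 247 of 23048 probes. In SM + MSTF versus SM it was 5 at an unadjusted p and 4 with the t-test (genes 1 and 1; 5.36% and 3.75% of all probes), and 0 to 1 with each array left out. With each array left out, the calls over all probes ranged from 65 to 717 in SM versus control, from 0 to 247 in SM + MSTF versus control and from 98 to 301 in SM + MSTF versus SM. In the related lists 1 gene was called in SM versus control, with 0 under no filter, the replicate block or the slide as a random block, 2 with only the groups compared, 3 at an unadjusted p, 2 with the methods' t-test and 0 to 2 with each array left out. They gave 0 to 1 in SM + MSTF versus control with each array left out, and 3 at an unadjusted p and 1 with the t-test in SM + MSTF versus SM. The cause of these changes was not tested. The replicate block left the count of class II probes called at 0 in each comparison. Deviations of same-numbered arrays correlated between -0.0991 and 0.169, so that the numbers were not taken as pairs. SM versus control and SM + MSTF versus SM could not be fitted with the slide as a fixed block, since the SM arrays filled slide 2.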
